A study of Mus musculus with 16 samples.

Results

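Mmd and its paralog Mmd2 were followed across C2C12 cells that had lost the muscle microRNAs of the miR-1/206 family. The genes were taken by symbol from a table of 35275 genes, and these are 2 of them. Mmd was chosen for its difference between knockout and control cells, so that difference is described here and not tested. Mmd2 was added as its closest relative.

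Mmd (monocyte to macrophage differentiation-associated, also called PAQR11) encodes a membrane protein of the PAQR family, whose best known members are the adiponectin receptors Adipor1 and Adipor2. Mmd and Mmd2 (PAQR10) have been described as Golgi proteins that hold Ras at the Golgi and raise signalling to the kinase ERK. Mmd has also been described as a partner of Acsl4 and Mboat7, enzymes that place arachidonic acid into phospholipids. MicroRNAs of the miR-1/206 family rise when myoblasts form myotubes, and they lower messenger RNAs whose 3′ untranslated regions (UTRs) pair with their seed, bases 2 to 8.

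C2C12 is an established mouse myoblast line, here PAX7 negative per the labels. The 4 groups were control cells and cells with a triple knockout (tKO) of miR-1a-2, miR-1a-1 and miR-206, each in growth medium with 20% fetal bovine serum (GM) and after 3 days with 2% horse serum (DM3). Controls, labelled wild type, were 2 cell populations and tKO cells were 2 clones, called lines 1 and 2 of each genotype. Each line gave 2 numbered cultures at each stage, so every group held 4 libraries of poly(A) RNA. All tKO lines were clones and all controls were populations, so an effect of the knockout cannot be told apart from an effect of cloning. Agreement of the 2 clones bears only on the divergence of single clones. The labels do not say whether the numbered cultures were grown apart in time.

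Depth was 22642563 to 56585952 fragments per library. The deleted microRNA genes were not analysed here. The transcript listed as mmu-mir-133b spans the Mir206 position. In DM3 its fragment numbers ran from 59 to 608 for controls and from 14 to 152 for tKO, ranges that overlap, so it does not check every label. Of the myoblast markers, Des, Cdh15, Myf5 and Itga7 were present in every library, while in GM Myod1 had 0 fragments in each control library and at most 3 in a tKO library. In DM3 Myod1 had 44 to 288 fragments in controls and 84 to 203 in tKO.

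The sequences that link Mmd to this microRNA family are the miR-206 seed and its matches in the Mmd 3′ UTR. The mature microRNA (RefSeq, GRCm38.p6, chromosome 1, 20679055 to 20679076, plus strand) is shown with its seed in capitals. The UTR windows are from GENCODE release M21 on GRCm38, with the match in capitals. An 8-base match is ACATTCCA, which pairs with bases 2 to 8 and has an A opposite base 1. A 7-base match is CATTCCA or ACATTCC, counted only outside an 8-base match.
miR-206-3p: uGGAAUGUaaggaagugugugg
Mmd, 7-base match: gaatcaattcttCATTCCAttccactatca
Mmd, 8-base match: gcaaacggtcaACATTCCAcgaacaaacat
Mmd2, 8-base match: gaccaaggcatACATTCCAaacaggtcctg

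Mmd (ENSMUSG00000003948) lies on the plus strand of chromosome 11, listed in the deposited table from 90187684 to 90278589 with a length of 2677 bases. That length equals that of the longer annotated transcript of Mmd, whose 3′ UTR runs over 1726 bases from 90276864 to 90278589. The 3′ UTR of the longer transcript holds 3 matches. A pair of 7-base matches overlap each other at UTR bases 223 to 229 and 228 to 234 (90277086 to 90277092 and 90277091 to 90277097), and the second can be read on from the last letters of the capitals in the window above. The 8-base match is at UTR bases 610 to 617 (90277473 to 90277480). The shorter transcript has a different 3′ UTR of 836 bases (90267630 to 90268465) with 0 matches. Gene-level values do not separate these transcripts.

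Mmd2 (ENSMUSG00000039533) lies on the minus strand of chromosome 5, from 142562365 to 142608800. Its 3′ UTR of 2380 bases also holds an 8-base match, at UTR bases 662 to 669, and a 7-base match at bases 1174 to 1180, with a 6-base match (CATTCC) at bases 1246 to 1251. Both paralogs thus carry the letters of a full seed match.

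**Figure D1:**
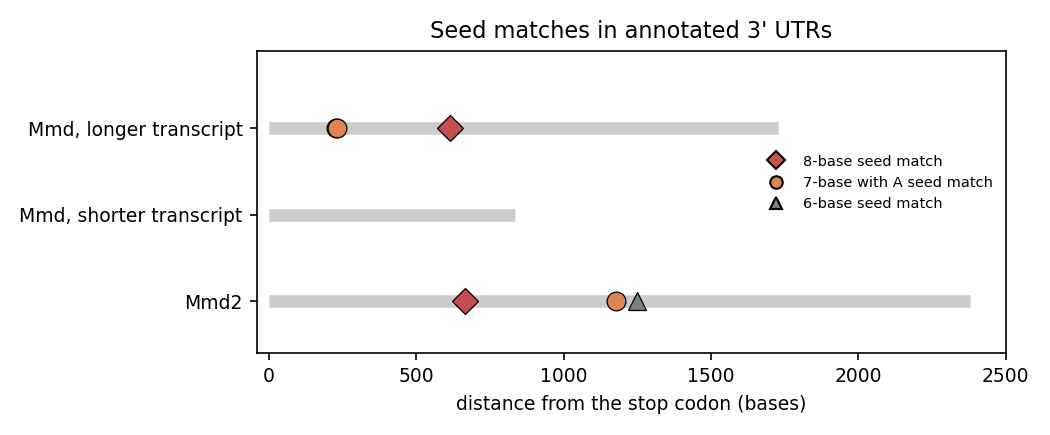
Seed matches along the annotated 3′ UTRs of the longer Mmd transcript (1726 bases), the shorter one (836 bases) and Mmd2 (2380 bases), by distance from the stop codon in bases. In the longer Mmd transcript the overlapping 7-base matches lie before the 8-base match, and the shorter one has none.

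Among 10806 tested genes with an annotated 3′ UTR (the longest one per gene), 4.46% had at least 1 8-base match and 18.96% had a match of 7 or 8 bases. Only 0.833% had 3 or more matches of 7 or 8 bases, as Mmd has, and 53 genes (0.491%) combined an 8-base match with at least 2 of 7 bases. Overlapping matches, such as the 7-base pair of Mmd, were counted separately in these numbers. The Mmd UTR was longer than the median of 1192 bases, at percentile 63.9 of these genes. A match describes letters and is not shown here to be bound.

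Mmd2 RNA was not detected at this depth. It had 0 fragments in each of the 16 libraries. The level that 3 fragments would give was 0.016 to 0.040 FPKM (fragments per library depth and per kilobase of the gene) in single libraries, and 0.0017 FPKM over the 520768913 fragments of all libraries together. These limits cover counting error only. The lowest group mean of Mmd was 12.2 FPKM, so the values that follow concern Mmd alone.

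In growing cells Mmd was an abundant transcript in both genotypes. Control GM population 1 had 46.8 FPKM in culture 1 and 45.1 in culture 2, and population 2 had 50.4 and 53.6 (mean 49.0 ± 3.83 FPKM, SD, n = 4). tKO GM clone 1 had 44.6 FPKM in culture 1 and 95.8 in culture 2, and clone 2 had 39.8 and 65.2 (mean 61.4 ± 25.5, n = 4). The first cultures of both clones lay below every control library and the second cultures of both clones lay above every one.

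After 3 days of differentiation the groups separated. Control DM3 population 1 had 9.80 and 13.1 FPKM in cultures 1 and 2, and population 2 had 11.2 and 14.6 (mean 12.2 ± 2.11, n = 4). tKO DM3 clone 1 had 28.0 and 31.0 FPKM, and clone 2 had 34.1 and 36.2 (mean 32.3 ± 3.61, n = 4). Every tKO library was above every control library, and both clones took part, but the share of tested genes separated this way was not counted. These levels rested on 954 to 5807 fragments per library.

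**Figure D2:**
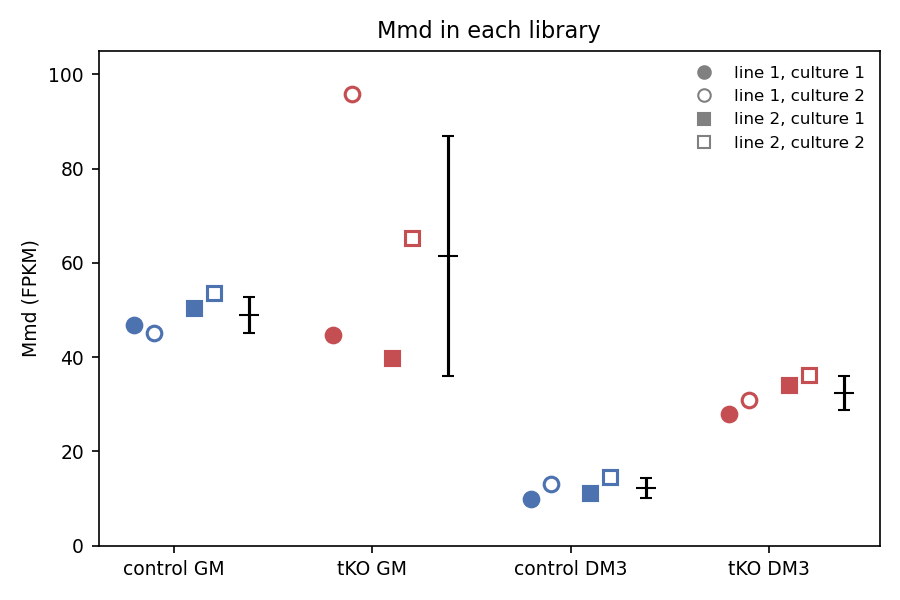
Mmd in FPKM (linear axis from 0) in the 16 libraries by group, with lines (control populations or tKO clones) as circles and squares and cultures 1 and 2 filled and open. Black bars are group means ± SD (n = 4). tKO DM3 libraries sit at 28.0 to 36.2 FPKM, above the control DM3 libraries at 9.80 to 14.6, while tKO GM spans 39.8 to 95.8.

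In DM3 the mean of tKO was 2.65 times that of controls, and the ratio of any tKO library to any control library was between 1.91 and 3.70. On the scale log2(FPKM + 1), used for all differences below, tKO was 1.35 above control, the 18th highest of 11832 tested genes. In the same comparison 3.38% of tested genes passed an adjusted p of 0.05 and 2.02% passed it upward. Because Mmd was selected on this difference, nothing is read from its place against those shares.

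Within each clone and culture number the DM3 difference had a similar size. Clone 1 was 1.22 above all controls and clone 2 was 1.47 above them. In culture 1 the difference was 1.47 and in culture 2 it was 1.22, and tKO and control did not overlap in either. Each culture number held only 2 tKO libraries in DM3, and Mmd was selected on this difference. Nothing is read from that separation. Leaving out any 1 DM3 library gave differences of 1.26 to 1.43.

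In GM the difference was small and its sign depended on the culture. tKO was 0.24 above control on average, with overlapping ranges. In culture 1 tKO was lower, by a difference of -0.20, and in culture 2 it was higher, by 0.67. Without clone 1 culture 2, the library at 95.8 FPKM, the average difference was -0.0027. That library was also the shallowest and had the highest level of the adipocyte marker Fabp4, 11.5 FPKM, while Adipoq and Plin1 had at most 5 fragments anywhere. Their part in the result was not tested. In GM 2.06% of tested genes passed, and 0.549% passed upward.

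The order of group means was tKO GM (61.4), control GM (49.0), tKO DM3 (32.3) and control DM3 (12.2 FPKM). The first pair overlapped. Each of the other neighbours in this order was separated, although the lowest tKO GM library at 39.8 lay close to the highest tKO DM3 library at 36.2.

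Mmd fell when cells differentiated. Averaged over the genotypes, DM3 was 1.38 below GM on the log2 scale, a difference of -1.38 (SE 0.145, limma adjusted p = 2.73e-07), and Mmd was lower in DM3 than in GM in all 8 line and culture pairs. In this balanced design the value of this average does not depend on the genotype difference that selected the gene. Both use the same estimate of the spread, so the p-value is not fully free of the selection. Such a stage difference is not rare: 72.2% of tested genes passed in this comparison, 43.2% downward and 28.9% upward. More negative differences than that of Mmd were found for 717 genes. The median tested gene was at -0.14. With median-of-ratios scaling that median became 0.0042, the calls went from 3424 higher and 5117 lower to 4239 and 4226, and the Mmd difference was -1.20.

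The size of the fall differed by genotype, as a description that follows from the selection. Control GM was 4.02 times control DM3, and tKO GM was 1.90 times tKO DM3. In population 1 the ratio of GM to DM3 was 4.77 in culture 1 and 3.45 in culture 2, and in population 2 it was 4.51 and 3.67. In clone 1 it was 1.60 and 3.10, and in clone 2 it was 1.17 and 1.80. Between these same-numbered cultures every control ratio exceeded every tKO ratio, but the labels state no such pairing. Over any GM and any DM3 library of a genotype, control ratios began at 3.08 and tKO ratios reached 3.42, which overlap. The widest spread was again in the clones, through their GM values. Control fell by 1.93 and tKO fell by 0.83 on the log2 scale, and the gap between them was 1.11.

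The test between lines of the same genotype did not pass for Mmd. Clone 2 was at -0.053 against clone 1 with stage in the model (95% interval -0.63 to 0.52, limma adjusted p = 0.941), while 1.05% of tested genes passed. This value averages opposite differences. In GM clone 1 had the higher mean (70.2 and 52.5 FPKM, overlapping), and in DM3 clone 2 was higher without overlap (34.1 to 36.2 against 28.0 to 31.0). Each stage held 2 libraries per clone, and the share of tested genes separated this way was not counted. The sign turned without tKO GM clone 1 culture 2 (0.22) or clone 2 culture 1 (0.15). Control population 2 was 0.17 above population 1 (95% interval -0.081 to 0.42, limma adjusted p = 1.00), a comparison in which 0.0% of tested genes passed with limma (104 genes had an unadjusted p under 0.05, and voom also called 0).

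Mmd was also compared between culture numbers. In GM culture 2 was 0.45 above culture 1 (95% interval 0.091 to 0.82). This did not pass (limma adjusted p = 0.185), and 2.1% of genes were called. It was higher in culture 2 in 3 of 4 lines. In DM3 it was 0.24 above (95% interval -0.12 to 0.60, limma adjusted p = 0.369), higher in 4 of 4 lines, and 10.3% of genes were called.

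Bulk RNA cannot tell more Mmd per cell from a different mix of cells, so markers of myotubes and myoblasts were set beside it. The sum of Myog, Ckm, Myh3, Actc1, Tnnt1 and Tmem8c in control DM3 was 136 and 149 FPKM in population 1 and 106 and 126 in population 2. In tKO DM3 it was 293 and 149 FPKM in clone 1 and 235 and 103 in clone 2. In culture 1 both clones were above both controls, and in culture 2 clone 1 was level with population 1 and clone 2 was below both controls. Tnnt1 was the largest part of the DM3 sum, with a mean of 74.2 FPKM in controls and 89.5 in tKO. Ckm in DM3 culture 1 was also higher in clones 1 and 2 (23.005 and 21.78 FPKM) than in populations 1 and 2 (15.75 and 9.657). In DM3 culture 2 Ckm was lower in both clones (5.502 and 5.471 FPKM) than in both populations (15.39 and 7.862). Mmd was higher in tKO in both cultures, by 1.47 and 1.22. In GM the sum was at most 0.908 FPKM. Of the 6 markers, 0 passed the genotype test in DM3 (limma), but 3 had an unadjusted p under 0.05. Of all tested genes 3.38% passed there. Myh3 had a mean of 12.7 FPKM in DM3 controls and 45.1 in tKO (limma adjusted p = 0.0511), and Actc1 had 0.535 and 7.38 (limma adjusted p = 0.0531).

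The sum of the 5 myoblast markers Des, Cdh15, Myf5, Myod1 and Itga7 overlapped between genotypes. In DM3 it was 595.6 to 911.1 FPKM for controls and 552.8 to 1029.7 for tKO, and in GM 103.8 to 116.1 and 104.3 to 191.9. The sum was thus higher in DM3 in both genotypes. With differentiation 4 of the 5 markers rose and 0 fell (limma), against 28.9% of all tested genes that rose. The overlap therefore does not show an equal share of myoblasts. Cdh15, a muscle cadherin, rose in tKO GM by 1.47 (9.79 ± 1.44 to 29.7 ± 8.80 FPKM, limma adjusted p = 0.000589). In DM3 0 of the 5 passed the genotype test and 3 had an unadjusted p under 0.05. Cdh15 was at 0.66 and Des, the muscle intermediate filament, at -1.14. In that comparison 3.38% of all tested genes passed. The part of either marker list in the Mmd difference was not tested.

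**Figure D3:**
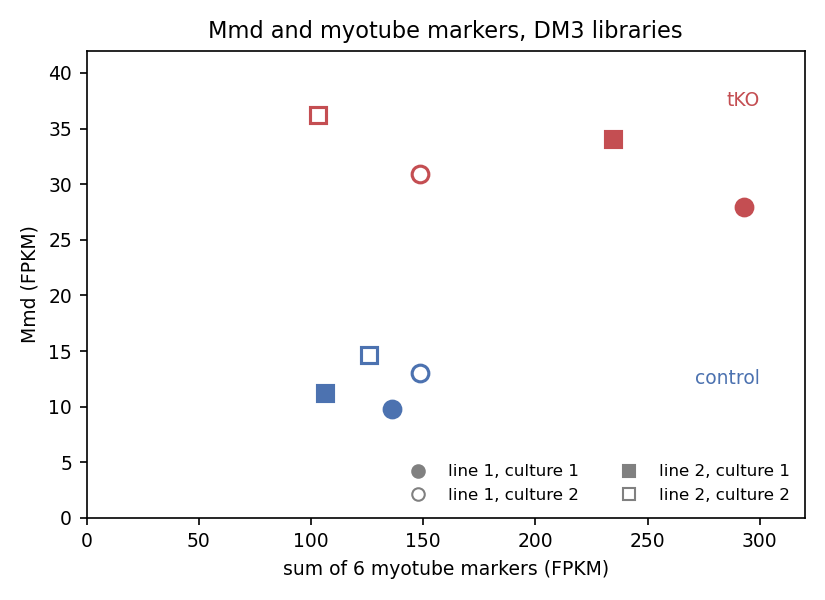
Mmd (vertical axis, FPKM) against the sum of 6 myotube markers (horizontal axis, FPKM) in the 8 DM3 libraries, coloured by genotype, with lines as circles and squares and cultures 1 and 2 filled and open. tKO libraries lie at 28.0 to 36.2 FPKM of Mmd over marker sums from 103 to 293, and controls at 9.80 to 14.6 over 106 to 149.

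Mmd was named for its rise in maturing macrophages, so macrophage markers were read too. Their sum over 7 genes in DM3 was 7.39 to 11.7 FPKM for controls and 8.44 to 24.0 for tKO, and in GM 12.8 to 15.5 for controls and 13.01 to 19.6 for tKO. Of the 7, 3 passed the filter. Of these, 0 passed the genotype test with limma in either stage (2 had an unadjusted p under 0.05 in DM3). Over all tested genes 2.06% passed in GM and 3.38% in DM3. The defining markers were at or near 0: Ptprc and Itgam had at most 10 fragments and Adgre1 (listed as Emr1) at most 2 in any library. Most of the sum was Cd14, at 5.33 to 14.5 FPKM.

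Mmd was next placed among 50 genes recalled from the literature as miR-1 or miR-206 targets. Of these, 47 passed the filter. In DM3 Mmd ranked second of the 47 by difference, behind Tmsb4x, so the description of Mmd as the strongest target did not hold over this list. In GM it ranked 7th. The list was recalled with results of these data known and is not independent evidence of direction.

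Without Mmd, 13 of 46 listed targets rose in DM3 and 0 fell (limma, 22 with an unadjusted p under 0.05), against 2.02% of all tested genes that rose. Their median difference was 0.35, and that of all tested genes was 0.0077. In GM only Tagln2 rose and 0 fell, where 0.549% of all tested genes rose. The GM median was -0.022 beside -0.012 for all genes. With differentiation 26 of the 46 fell and 10 rose (limma), with a median difference of -0.67. Over all tested genes 43.2% fell and 28.9% rose, with a median of -0.14. A fall with differentiation was thus not particular to Mmd among these targets. Of the 46, 41 had a match of 7 or 8 bases, 18 had an 8-base match, and 6 had 3 or more matches of 7 or 8 bases. The count of targets called between genotypes in DM3 fell to 1 without control population 1 and to 4 without population 2. Calls over all tested genes fell there from 400 to 49 and 64. The target count was 8 without any 1 of control DM3 population 1 culture 1, control DM3 population 1 culture 2 or tKO DM3 clone 1 culture 2. Over all tested genes 244, 208 and 241 were called in these settings.

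The listed targets that rose most had varied roles. Tmsb4x, which sequesters actin monomers, had 266.8 ± 9.82 FPKM in DM3 controls and 936.5 ± 308 in DM3 tKO cells, a difference of 1.75 (limma adjusted p = 0.000269). It and Ptma have processed pseudogenes that could share reads, so both values are uncertain. Notch3, a Notch receptor, followed Mmd at 1.15 (20.0 ± 2.73 and 45.5 ± 3.93 FPKM). Next came Twf1, an actin-binding twinfilin, at 1.08, and G6pdx, the first enzyme of the pentose phosphate pathway, at 1.07.

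Lasp1 and Tagln2, both actin-binding, were at 1.06 and 0.92, the splicing factor Srsf9 at 0.89 and Ptma, a small chromatin-linked protein, at 0.75. Of these 8, Tmsb4x was called in all 20 alternatives, G6pdx in 19, Lasp1, Srsf9 and Tagln2 in 18, Notch3 in 16, Ptma in 15 and Twf1 in 13. The GM rise of Tagln2 (283.97 ± 12.1 to 489.8 ± 168 FPKM, limma adjusted p = 0.0400) was lost in most alternatives, being called in 9 of 28. Around Mmd in GM stood Lasp1 (0.49), Hspd1 (0.42) and Ets1 (0.27) above it and Gja1 (0.23), Vamp2 (0.20) and Anxa5 (0.18) below it, of which 0 passed (limma adjusted p of 0.102 to 0.615).

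**Figure D4:**
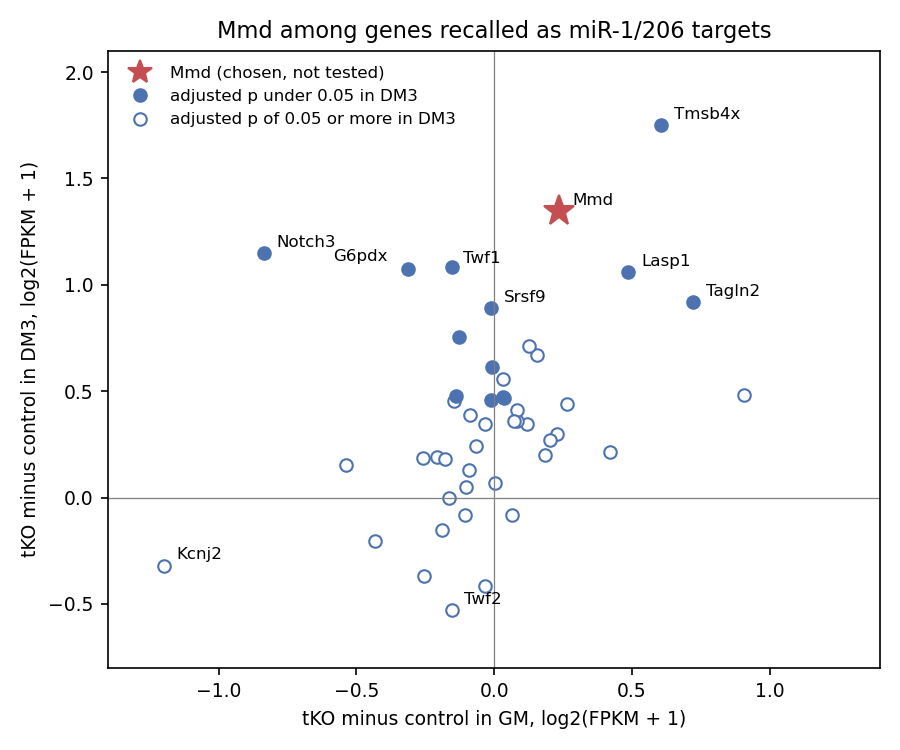
Difference between tKO and control on the log2(FPKM + 1) scale in GM (horizontal) and DM3 (vertical) for 47 genes recalled as targets of miR-1 or miR-206; filled circles passed the DM3 test. Mmd (star) lies at 0.24 and 1.35, below Tmsb4x and above Notch3 on the DM3 axis.

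Among all 482 tested genes with an 8-base match, Mmd ranked 4th by its DM3 difference and 53rd by its GM difference. The genes above it in DM3, named after their values were seen, were Tmsb4x (1.75), the cannabinoid receptor gene Cnr1 (1.56) and Tpm4 (1.46), which encodes a tropomyosin. Of the 482 genes, 48 rose and 4 fell in DM3, with a median difference of 0.17. The selected gene Mmd is counted among the 48. Over all 11832 tested genes 2.02% rose and 161 genes fell. Of the 8757 genes without a match of 7 or 8 bases 113 rose and 135 fell, with a median of -0.010. In GM 2 of the 482 rose and 8 fell, with a median of -0.054. There 0.549% of all tested genes rose and 179 of the 11832 fell. Among the 90 genes with 3 or more matches of 7 or 8 bases, only Tpm4 had a larger DM3 difference than Mmd. Mmd was selected on its genotype difference, so nothing is read from its ranks among these genes.

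The same Tpm4 had the profile most like Mmd over all 16 libraries (Pearson r 0.975 on the log2 scale). Tpm4 was at 431.5 ± 41.8 FPKM in control GM, 539.8 ± 131 in tKO GM, 68.4 ± 14.2 in control DM3 and 188.4 ± 22.8 in tKO DM3. It carries 3 matches of 7 or 8 bases, 1 of them an 8-base match. After the group means were subtracted its r with Mmd was 0.878.

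The next profiles were Syde1 (r 0.970), Pgrmc1 (0.961), Faim (0.958), Myo1e (0.946), Smarcd1 (0.943), Ets1 (0.941), Upf3a (0.938), Blcap (0.937) and Safb2 (0.937). Of these 10 genes, 8 had a match of 7 or 8 bases and 4 an 8-base match, beside 18.96% and 4.46% of tested genes with a 3′ UTR, while Syde1 and Faim had none. The profile holds the DM3 difference that selected Mmd, so nothing is read from these counts. All points share the same 16 libraries and 4 groups, and 54 of 11831 genes had r above 0.9. With Spearman rho 4 of the 10 stayed among the top 10, and with pseudocount 0.1 the number was 8. The most opposite profiles were the myosin phosphatase subunit Ppp1r12b (r -0.955), the citrate synthase gene Cs (-0.949) and C1qtnf3 (-0.946).

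The other PAQR genes mostly rose with differentiation, where Mmd fell. Of the 10 listed without Mmd, 6 passed the filter, and 0 passed the genotype test in GM or DM3 (limma, with 1 and 2 at an unadjusted p under 0.05; voom also called 0). In those comparisons 2.06% and 3.38% of all tested genes passed. The median differences of the 6 were -0.23 in GM and -0.066 in DM3. With differentiation 5 of the 6 rose and 0 fell, against 28.9% of all tested genes that rose, with a median of 0.53 where Mmd was at -1.38. Whether Mmd differs from them was not tested.

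The adiponectin receptors were the most abundant of them. Adipor1 was at 49.2 FPKM in control GM, 50.6 in tKO GM, 72.05 in control DM3 and 71.7 in tKO DM3, and rose by 0.52 with differentiation (limma adjusted p = 6.12e-07). In growing cells its level per length was close to that of Mmd. Adipor2 was at 21.7, 20.9, 32.3 and 33.0 FPKM in the same order and rose by 0.60 (limma adjusted p = 1.02e-06). Their tKO differences in DM3 were -0.0083 and 0.030, each with a standard error of at most 0.0998.

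The membrane progestin receptor genes were lower. Paqr7 was at 1.48, 0.654, 5.21 and 3.07 FPKM and Paqr8 at 2.77, 1.84, 3.54 and 3.39, and they rose with differentiation by 1.32 and 0.42 (limma adjusted p = 9.39e-08 and 0.0260). The Paqr8 rise did not pass in 5 of 27 alternatives: without control population 1 (limma adjusted p = 0.0942) or population 2 (0.158), without tKO GM clone 2 culture 1 (0.05002) or culture 2 (0.0555), and with no filter (0.0521). Paqr7 was lower in tKO than in control in every library at both stages, with differences of -0.63 and -0.62, which did not pass (limma adjusted p = 0.0807 and 0.0717). The share of tested genes separated this way was not counted. Without tKO clone 2 both Paqr7 differences passed, at -0.99 in GM (limma adjusted p = 0.000794) and -0.84 in DM3 (limma adjusted p = 0.00205). The GM difference also passed without tKO GM clone 2 culture 1 (limma adjusted p = 0.0211). The DM3 difference also passed with median-of-ratios scaling (limma adjusted p = 0.0433), without tKO DM3 clone 2 culture 2 (0.0464) and without tKO GM clone 1 culture 2 (0.0428). Paqr3, a Golgi protein described as holding back Raf, was at 1.35, 1.09, 1.90 and 2.71 FPKM, and rose with differentiation by 0.55 (limma adjusted p = 0.000259). Its tKO difference in DM3 was 0.36 (limma adjusted p = 0.241). Paqr4 was at 11.4, 9.17, 10.3 and 9.61 FPKM, with a stage difference of -0.046 that did not pass (limma adjusted p = 0.741) and was 0.12 with median-of-ratios scaling. Paqr5, Paqr6, Paqr9 and Mmd2 were below the filter.

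**Figure D5:**
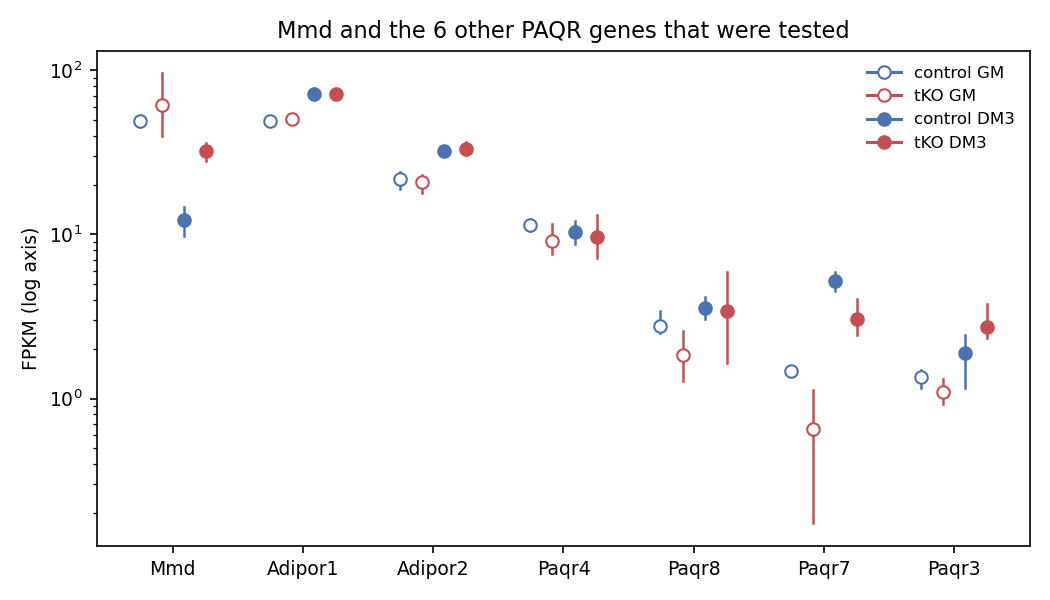
Mean FPKM (points, log axis) and range over 4 libraries (lines) in each group for Mmd and the 6 other PAQR genes that passed the filter. Mmd is lower in control DM3 (12.2) than in the other groups, whereas Adipor1 and Adipor2 are higher in DM3 than in GM in both genotypes.

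Genes of the Ras pathway and the Mmd partners were read from a list of 25, of which 21 passed the filter. In both GM and DM3 0 passed the genotype test (limma, with 7 and 3 at an unadjusted p under 0.05; voom also called 0). Over all tested genes 2.06% passed in GM and 3.38% in DM3, so 0 of 21 is near those shares. Without tKO GM clone 2 culture 1 the GM count was 4, where 749 of all tested genes were called. Without tKO DM3 clone 1 culture 1 the DM3 count was 1, where 854 of all tested genes were called. In DM3, Acsl4 was at 24.9 FPKM for controls and 23.7 for tKO, and Mboat7 at 12.8 and 14.9. In the same order, Hras was at 14.9 and 13.1 FPKM and Nras at 18.5 and 18.3. With differentiation 5 of the 21 rose and 8 fell, near the shares of all tested genes (28.9% and 43.2%).

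Transcripts that follow ERK activity were read from a list of 19, of which 18 were tested. In GM 0 passed with limma (2 at an unadjusted p under 0.05; voom called 1). Over all tested genes 2.06% were called in GM and 3.38% in DM3 (161 of 11832 fell). Among the 18 listed genes 1 fell and 0 rose in DM3, and no result about the list is read from these counts. The gene that fell was Spry1, a feedback inhibitor of receptor tyrosine kinase signalling to Ras and ERK. Control DM3 had 2.22 and 3.19 FPKM of Spry1 in population 1 and 2.62 and 2.39 in population 2, and tKO DM3 had 0.371 and 0.0752 in clone 1 and 0.221 and 0.301 in clone 2. No library of one group reached the other, and the difference was -1.54. It passed in all 27 alternatives that tested Spry1 (limma adjusted p of 1.83e-07 to 0.00181), and a filter of 5 FPKM removed the gene. In GM Spry1 had 13 to 27 fragments in control libraries and at most 1 in a tKO library, which did not pass on the log2(FPKM + 1) scale (limma adjusted p = 0.139) but did with pseudocount 0.1 (-1.76, limma adjusted p = 0.00716) and with voom (-4.60, adjusted p = 0.00136). The DM3 difference of Spry1 also grew in these, to -3.06 and -3.59, and was -2.17 with TPM.

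The other ERK-responsive genes in DM3, among them Dusp4 (22.36 and 21.01 FPKM), Dusp6 (4.28 and 6.05), Spry2 (26.6 and 20.4) and Fosl1 (9.02 and 13.7, control then tKO), did not pass. The median DM3 difference of the 18 was 0.057. With differentiation 3 of the 18 rose and 9 fell, beside 28.9% and 43.2% of all tested genes, and Fosl1 fell furthest at -2.78, then Etv4 at -2.10.

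Of the genes beside Mmd on chromosome 11, 0 of the 3 tested passed the genotype test in DM3 (limma). Within 500000 bases the table holds 6 protein-coding genes. The upstream genes Pctp and Tmem100 and the nearest downstream gene Hlf were below the filter, with at most 0.369 FPKM in any library. At these low levels Pctp had a mean of 0.299 ± 0.056 FPKM in control GM and 0 in tKO GM. Its DM3 means were 0.035 FPKM in controls and 0.0029 in tKO, and its genotype difference was not tested. The other downstream genes were Stxbp4, Cox11 and Tom1l1, with DM3 differences of 0.28, 0.018 and -0.37 (limma adjusted p of 0.562 to 0.964). In GM 0 of the 3 passed as well. Over all tested genes 2.06% passed in GM and 3.38% in DM3. Cox11 and Tom1l1 overlap on opposite strands, and the strand setting of the counting is not given in the sources used here. Around Mmd2, which was not detected, 9 of 12 protein-coding genes within the same distance passed the filter and 0 of the 9 passed the genotype test in either stage.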

How the data were processed

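The authors deposited 1 table of FPKM values for 16 libraries, with gene lengths and positions. STAR, DESeq and mm10 are named in the submitters' processing notes, with no versions. The counting program, annotation and strand setting are not given in the sources used here. FPKM times length gave whole fragments (100% within 0.01), from which depths were taken. Genes with a mean of at least 0.5 FPKM (11832 genes) were fitted as log2(FPKM + 1) with limma 3.58.1 in R 4.3.3 (trend, robust) over all libraries, with Benjamini-Hochberg adjustment over all tested genes. This scale understates changes of low genes. Line contrasts used the 8 libraries of a genotype with stage as covariate, and culture contrasts used group means plus culture within stage. P-values measure the spread between these libraries, which may be technical. The members, lists and tests were chosen with earlier results of these data known.

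Named genes were both members, tested PAQR genes, the 3 nearest coding neighbours of Mmd on each side, the 10 profiles most like it and 3 least, and up to 8 called genes per list and stage, with targets ranked next to Mmd. The fit was tested on simulated data. Seed matches were searched on the sense strand of GENCODE M21 3′ UTRs (GRCm38). Alternatives were other pseudocounts, filters and scalings, TPM, voom on the recovered fragments, a replicate block, line averages, and leaving out libraries or lines. Calculations used Python 3.11.15 and pandas 2.3.3.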

Additional observations from a re-analysis of the deposited data

Results flagged for a closer look

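Paqr3 in tKO DM3 had 1 library far from the others: clone 1 culture 2 was at 3.74 FPKM, and the rest of the group was at 2.32, 2.36 and 2.42. Chance marks about 1 group in 20 in this way, and 28 groups of 4 libraries were examined, from Mmd and the tested PAQR genes. Without that library the Paqr3 difference between tKO and control in DM3 was 0.24 (limma adjusted p = 0.600) in place of 0.36, and its rise with differentiation was 0.49 (limma adjusted p = 0.000440).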

How the results depend on the processing

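The Mmd difference in DM3 kept its sign in all 18 alternatives (1.22 to 1.47), and the Mmd fall with differentiation passed in all 28 (-1.53 to -1.20). The clone difference of Mmd was 0.027 with TPM. Leaving out 1 library at a time gave -0.0027 to 0.41 for Mmd in GM, 1.26 to 1.43 in DM3, -1.47 to -1.26 for stage, -0.21 to 0.22 between clones, 0.095 to 0.25 between control populations, 0.26 to 0.59 between GM cultures and 0.18 to 0.32 between DM3 cultures.

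Genes called in GM (244) were 93 with a filter of 5 FPKM, 97 with line averages, 33 and 38 without control population 1 or 2, and 1315 without tKO clone 2. Genes called in DM3 (400) were 231, 131, 49, 64 and 1136 in the same order. Calls between clones (124) were 42 with the filter of 5 and 41 with no filter. Culture calls in DM3 (1214) were 697 with the filter of 5, 4 without control population 2, 1928 without tKO clone 1 and 403 without clone 2. Culture calls in GM (248) were 82 with no filter, 19 and 0 without control population 1 or 2, and 587 and 21 without clone 1 or 2. Leaving out 1 library gave 80 to 749 calls in GM, 208 to 854 in DM3, 8261 to 8617 for stage, 47 to 332 between clones, 31 to 243 for GM cultures and 140 to 2104 for DM3 cultures.

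PAQR calls were 2 in GM without clone 2, 1 in DM3 with median-of-ratios scaling and 1 without clone 2, and 2 for stage with the filter of 5. Ras list calls were 3 in GM without clone 2 and 1 in DM3 without clone 1. ERK list calls in GM were 1 with pseudocount 0.1 and 1 with voom (Spry1 in both) and 2 without clone 2, and in DM3 0 with the filter of 5, which removes Spry1. Target calls in GM were 0 with TPM, the filter of 5, line averages, median-of-ratios scaling, no filter, or without control population 1 or 2, and 6 without clone 2. Target calls in DM3 were 4 with line averages, 1 without control population 1 and 4 without population 2. Over all tested genes 131, 49 and 64 were called in these settings. Leaving out 1 library gave 0 to 4 target calls in GM and 8 to 17 in DM3, 0 to 1 PAQR calls in each stage and 4 to 5 for stage, 0 to 4 and 0 to 1 Ras calls in GM and DM3, and 0 to 1 and 1 to 1 ERK calls. The list counts stand beside calls over all tested genes that also moved. Without clone 2 these were 1315 in GM and 1136 in DM3, and without clone 1 they were 565 in DM3. Apart from fewer libraries or genes in some settings, the cause of these moves was not tested.

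The labels state no pairing by culture number. Same-numbered libraries of the other genotype correlated at a mean of 0.218 in their deviations from group means (-0.224 to 0.558), and 15 of 16 libraries were closer to the same number than to the other. With a replicate block on that number, 336 genes were called in GM, 523 in DM3, 8647 for stage and 157 between clones, with 1 Ras list call in GM, 2 target calls in GM and 16 in DM3. The Mmd differences are the same under the block by construction.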
